A study of Homo sapiens with 4 samples.

Results

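The genes described here are the 246 protein-coding genes of human chromosome 19 that carry a ZNF name (ZNF followed by a number), taken by chromosome, biotype and name from a table of 58735 genes. The rule itself uses no measured value. The cells sequenced carry the label human lung squamous cell carcinoma, with 2 libraries at 30 Gy (gray, the absorbed radiation dose) and 2 at 0 Gy. By its title, the series concerns radiotherapy resistance. Its design text names SK-MES-1, a lung squamous carcinoma line, and SK-MES-1-RR, a derivative resistant to radiotherapy, and the labels do not tie either line to a dose. They give neither the schedule of the 30 Gy, nor the time to RNA extraction, nor whether the resistant derivative is 1 clone. Dose and line cannot be told apart. Nothing states that replicates were separate cultures, and the p-values therefore measure only the spread between these libraries, which may be technical.

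C2H2 zinc finger proteins form the biggest class of human transcription factors. Each finger folds around a zinc ion held by a pair of cysteines and a pair of histidines, and a row of fingers reads a stretch of DNA. Many of these proteins also carry a KRAB box, which binds the corepressor TRIM28. TRIM28 brings the methyltransferase SETDB1, HP1 proteins and histone deacetylases, which together lay down H3K9me3 and silence the bound DNA, often a transposable element. The genes arose by repeated tandem duplication, and chromosome 19 holds them in runs. H3K9me3 also covers many of the ZNF genes themselves.

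Recovered depth was 15920861 and 15979341 reads in the 30 Gy libraries and 17261121 and 16773381 reads in the 0 Gy libraries. Replicates correlated at 0.981 at 30 Gy and 0.984 at 0 Gy (Pearson's r across 13379 genes, log2 scale), and libraries of different doses at 0.956 to 0.958. Simple-epithelial keratins were abundant in both groups, with KRT7 at 211 and 95.8 FPKM and KRT19 at 88.4 and 162 FPKM at 30 and 0 Gy. Of the squamous markers, KRT5 and KRT6A had 0 reads in all 4 libraries, KRT14 had 0 to 4 and SOX2 4 to 22, while TP63 had 378 to 524. The label is thus carried by TP63 and by few of the other squamous markers looked at. Immune and endothelial markers were near 0, with 0 to 13 reads for PTPRC, CD68 and PECAM1. Of the fibroblast markers, COL1A2 had 0 to 1 reads while COL1A1 averaged 72.9 and 62.2 FPKM and PDGFRB 1.48 and 0.685 FPKM at 30 and 0 Gy. Their part in the results was not tested.

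Sequences upstream of the genes were taken from RefSeq (GRCh38.p14), which matched 215 of the 246 members. The letters CCGGAA, the core bound by ETS factors, were searched on both strands of the 250 bases before the start. They were present in 88 of the 215 promoters (40.9%), against 14.8% of all 27305 promoters and 19.3% of the 15843 protein-coding ones. The GC box GGGCGG bound by SP1 was in 65.1% of member promoters, against 42.3% of all promoters and 56.0% of coding ones. The YY1 letters GCCATNTT were in 7.91%, 3.91% and 3.65% of these 3 sets and the CRE core TGACG in 25.1%, 21.7% and 25.6%. Median GC was 59.6% in member promoters, 58% in all promoters and 62.4% in coding ones. A match describes letters only and is not a measured binding site. The promoters shown are those of ZNF175, which had the largest fitted rise among the called members, and ZNF787, the most abundant called member that fell, with the ETS letters in capitals. That of ZNF175 is at chr19:51571033-51571282 on the plus strand and holds 1 match. That of ZNF787 is at chr19:56121296-56121545 on the minus strand. There the capitals read TTCCGGAA, which holds CCGGAA on both strands, 2 matches that overlap.
ZNF175: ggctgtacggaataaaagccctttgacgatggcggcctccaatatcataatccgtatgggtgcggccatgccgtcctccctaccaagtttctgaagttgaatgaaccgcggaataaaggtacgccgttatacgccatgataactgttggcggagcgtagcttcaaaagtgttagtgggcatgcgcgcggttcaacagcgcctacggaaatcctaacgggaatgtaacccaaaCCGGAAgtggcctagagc
ZNF787: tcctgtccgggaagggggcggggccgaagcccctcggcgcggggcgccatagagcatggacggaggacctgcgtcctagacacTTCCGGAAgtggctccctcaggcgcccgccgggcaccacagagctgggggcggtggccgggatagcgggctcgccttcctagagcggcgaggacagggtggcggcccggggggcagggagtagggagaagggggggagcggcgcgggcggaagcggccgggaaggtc

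Expression was given as FPKM, fragments per kilobase of exon adjusted for sequencing depth, so that levels can be compared between genes. Whole reads per gene were recovered from it. Detection here means at least 3 reads in at least 2 libraries, and these counts cover counting error only. Of the 246 members, 225 (91.5%) were detected, 16 had 0 reads in all 4 libraries and 5 lay between. Together the members took 44034 and 44824 reads at 30 Gy and 48906 and 47911 reads at 0 Gy. As a share of all reads this was 0.277% and 0.281% at 30 Gy and 0.283% and 0.286% at 0 Gy. Their summed level was 536 FPKM in each 30 Gy library and 547 FPKM in each 0 Gy library. The median member stood at 1.44 and 1.53 FPKM at 30 Gy and 1.44 FPKM in both 0 Gy libraries. Most members were therefore expressed, at a low level that was nearly the same at both doses.

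Members whose starts lay within 1 Mb of the run before them were joined, which gave 10 clusters of at least 3 genes, numbered here from the p-arm end, with 238 members in them and 8 scattered ones. Coordinates below are hg38. Cluster 1 (19:2819874-2944971) held 5 members, cluster 2 (19:7069444-9793180) 15, cluster 3 (19:11483427-12640098) 25 and cluster 4 (19:19668796-24129961), nearest the centromere on the short arm, 37. On the long arm, cluster 5 (19:34677639-34964049) held 5, cluster 6 (19:36182060-37817300) 26, cluster 7 (19:39984134-40090938) 3 and cluster 8 (19:43525497-45076588) 24. Towards the q-arm end, cluster 9 (19:51571298-53580269) held 39 and cluster 10 (19:55476332-58481230) 59.

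Median level spanned a wider range across clusters than between doses. Median FPKM was 2.77 at 30 Gy and 2.52 at 0 Gy in cluster 9, and 2.31 and 2.48 in cluster 10. In cluster 2 it was 3.19 at 30 Gy and 2.88 at 0 Gy. At the low end, cluster 4 had medians of 0.376 FPKM at 30 Gy and 0.534 FPKM at 0 Gy, and cluster 3 of 0.884 and 0.580. Clusters 6 and 8 lay between, at 1.0 and 0.792 FPKM and at 1.51 and 1.39 FPKM at 30 and 0 Gy. All 25 members of cluster 3 and all 24 of cluster 8 were detected, as were 57 of 59 in cluster 10 and 37 of 39 in cluster 9. In cluster 4, 28 of 37 were.

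**Figure D1:**
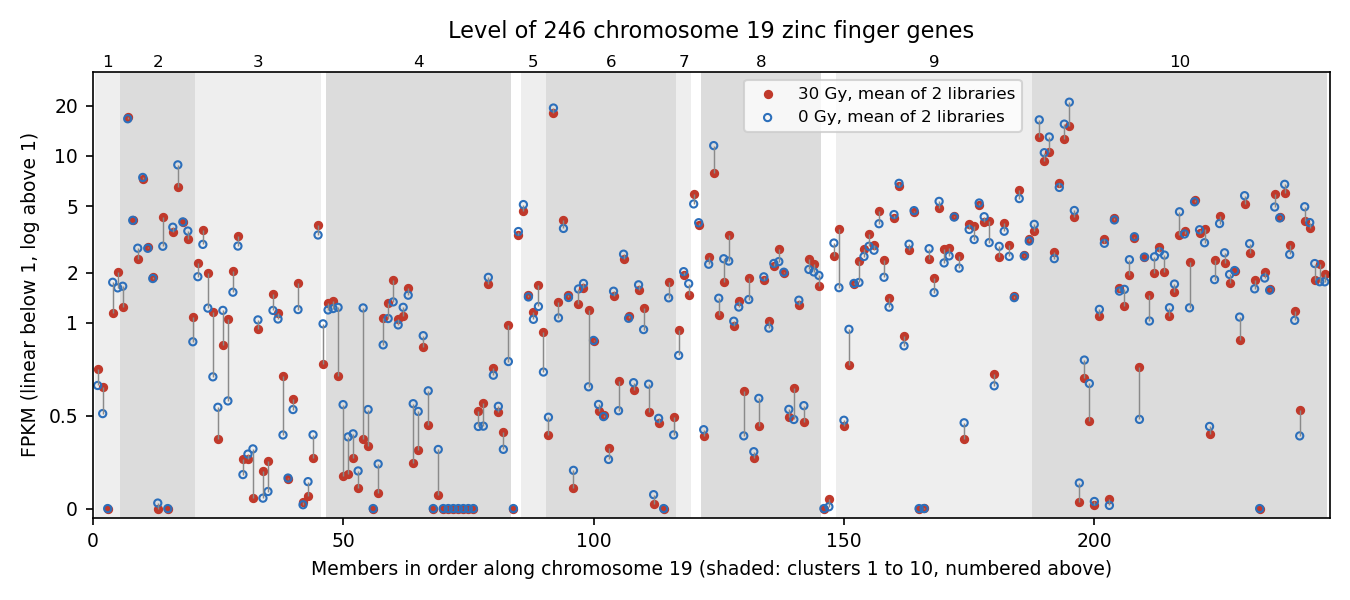
Mean FPKM of each of the 246 members at 30 Gy (filled) and 0 Gy (open), n = 2 libraries each, in order along chromosome 19, on an axis that is linear below 1 and logarithmic above; shading marks clusters 1 to 10. The highest points are ZNF146, ZNF787 and ZNF358, and 9 members of cluster 4 lie at 0.

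The silent members were concentrated in cluster 4, where 9 of the 16 lay: ZNF626, ZNF208, ZNF676, ZNF729, ZNF98, ZNF492, ZNF99, ZNF723 and ZNF728. The others were ZNF556 (cluster 1), ZNF560 (cluster 2), ZNF781 (cluster 6), ZNF534 (cluster 9), ZNF256 (cluster 10) and the scattered ZNF536 and ZNF541. A count of 0 allows up to 3 reads per library, so no change between doses was detectable for these 16.

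The most abundant members were mostly genes without a match to the KRAB A-box pattern. ZNF146, a protein made almost wholly of fingers, was first, with 16.9 and 19.1 FPKM at 30 Gy and 18.8 and 19.9 FPKM at 0 Gy. Its groups overlapped, with a log2 change of -0.10 (adjusted p = 0.426, limma). ZNF358 had 19.2 and 15.1 FPKM at 30 Gy and 16.2 and 17.2 FPKM at 0 Gy, a change of 0.03 (adjusted p = 0.886, limma), and 34.4% of its exons overlap another gene. ZNF579 had 15.1 and 10.8 FPKM at 30 Gy, both under its 16.1 and 16.8 FPKM at 0 Gy, and did not pass (-0.35, adjusted p = 0.178, limma). ZNF581 gave 13.6 and 11.5 FPKM at 30 Gy and 16.7 and 14.3 FPKM at 0 Gy, again with groups apart and no call (-0.28, adjusted p = 0.147, limma). ZNF865 had 11.5 and 9.68 FPKM at 30 Gy and 12.8 and 13.2 FPKM at 0 Gy, also apart (-0.28, adjusted p = 0.102, limma). ZNF524, at 9.99 and 8.60 FPKM at 30 Gy and 9.76 and 11.2 FPKM at 0 Gy, overlapped between doses (-0.16, adjusted p = 0.340, limma). The first 10 by level are completed by ZNF787, ZNF428 and ZNF121, which fell and are given below, and by ZNF317, at 7.47 and 7.01 FPKM at 30 Gy and 7.61 and 7.26 FPKM at 0 Gy. ZNF317 was the only one of these 10 with a KRAB match, and the other 9 had none. ZNF579, ZNF865, ZNF524, ZNF581 and ZNF787 are near neighbours at the start of cluster 10.

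Several of these genes are rich in GC, and the 30 Gy libraries differed from each other along GC. Of the 10 most abundant members, 8 had an exonic GC above 50% (50.4 to 71.1%), and 7 of these 8 were lower in 30 Gy replicate 2 than in replicate 1, ZNF428 being the exception. Over the 27 tested members above 50% GC, replicate 1 minus replicate 2 at 30 Gy had a median of 0.14 (log2), against -0.07 for the tested members at or under 50%. The median change between doses was 0.01 above 50% and 0.02 at or under it.

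The most abundant members of the remaining clusters did not pass the test, and for ZNF91, ZNF77 and ZNF791 the doses lay apart. ZNF91 of cluster 4 is a KRAB protein, with 31 finger matches, that represses SVA retrotransposons. It had 1.62 and 1.81 FPKM at 30 Gy and 1.87 and 1.88 FPKM at 0 Gy (log2 change -0.08, adjusted p = 0.633, limma). Finger numbers given here and below count matches to a regular spacing of cysteines and histidines, so irregular fingers are missed. ZNF791 led cluster 3 with 3.87 FPKM in each 30 Gy library and 3.60 and 3.13 FPKM at 0 Gy (0.16, adjusted p = 0.279, limma). ZNF302 led cluster 5 with 4.44 and 4.96 FPKM at 30 Gy and 4.83 and 5.40 FPKM at 0 Gy. ZNF480 in cluster 9 had 5.84 and 7.40 FPKM at 30 Gy, a range that encloses its 6.97 and 6.74 FPKM at 0 Gy. ZNF77 in cluster 1 had 1.93 and 2.12 FPKM at 30 Gy and 1.60 and 1.64 FPKM at 0 Gy, and ZNF780B in cluster 7 had 2.03 and 1.82 FPKM at 30 Gy and 1.93 and 2.13 FPKM at 0 Gy.

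Change with dose was tested with limma on log2(FPKM + 1) over all genes that reached 1 FPKM in 2 or more libraries. Of the 246 members 158 (64.2%) met this, 88 were not tested, and 67 of those 88 were detected. Log2 changes are 30 Gy minus 0 Gy; the added 1 makes those of low genes smaller than the true ones, and a call is a Benjamini-Hochberg adjusted p under 0.05. Of the 158 tested members 5 (3.16%) were called, against 19.8% of all tested genes. Higher at 30 Gy were 2, where the share over all genes was 10.8%, and 3 were lower, where it was 9.06%. At an unadjusted p under 0.05 there were 16 members (10.1%) and 5049 genes (37.7%). The median log2 change was 0.02, with quartiles of -0.10 and 0.14, and 87 members lay above 0 and 71 below. Over all tested genes the median was -0.0007. In bulk RNA, fewer cells of a type and less RNA per cell cannot be told apart.

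Over all 158 tested members the median change was small in size, as the calls were few in number. Their median absolute log2 change was 0.12, where that of all tested genes was 0.20. By mean level it was below that of all tested genes at 1 to 2 FPKM (0.09 against 0.23). The same held at 2 to 5 FPKM (0.12 against 0.19) and at 5 to 10 FPKM (0.13 against 0.19). The order was reversed for the 6 tested members at 10 FPKM or more (0.28 against 0.19). Under 1 FPKM the median was 0.39 for the 5 tested members and 0.32 for all tested genes. ZNF441, ZNF506, ZNF486 and ZNF850 are among these 5 and reached the filter only through the dose where they were higher. Such a filter favours a difference, so nothing is read from that order. Replicates of the members differed by a median of 0.12 at 30 Gy and 0.10 at 0 Gy, and over all genes by 0.11 and 0.10. The median difference between dose means and that between the single 30 Gy libraries were both 0.12. Means of 2 libraries vary less than single libraries, so these 2 values are not like for like. The 2 doses did not overlap for 79 of the 158 (50%), against 65.2% of all tested genes. ZNF441, ZNF440, ZNF506, ZNF486 and ZNF850 passed the filter through the libraries of 1 dose alone.

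Over the whole table fewer of the low genes were called, so the members were also set beside genes of like level. At a mean of 1 to 2 FPKM, 1 of 58 members was called (1.72%), against 189 of 2173 genes (8.70%). At 2 to 5 FPKM it was 1 of 75 members (1.33%) and 485 of 3327 genes (14.6%). At 5 to 10 FPKM it was 2 of 14 members (14.3%) and 606 of 2904 genes (20.9%), and at 10 FPKM or more 1 of 6 members (16.7%) and 1308 of 4561 genes (28.7%). By limma the share was lower among the members in each of these 4 ranges, and the upper ranges rest on few members. Under 1 FPKM it was 0 of 5 members and 66 of 414 genes (15.9%). With voom, a limma test on the recovered reads, the shares were 1.72% of members and 16.9% of genes at 1 to 2 FPKM. They were 6.67% and 25.6% at 2 to 5 and 14.3% and 33.5% at 5 to 10. At 10 or more the order was reversed, at 50% (3 of 6) and 42.6%. Under 1 FPKM the shares were 60% (3 of 5) and 22.5%. The 3 called there, ZNF506, ZNF486 and ZNF850, reached the filter only through the dose where they were higher. Such a filter favours a difference, so nothing is read from that share. These are shares and no test of the set was run.

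**Figure D2:**
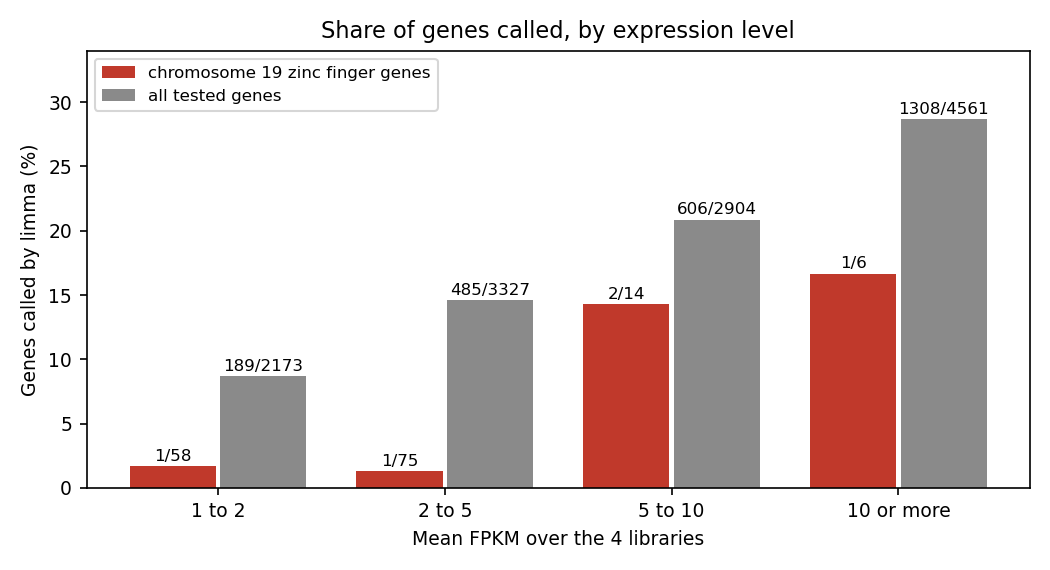
Percent of tested genes called by limma at an adjusted p under 0.05, for chromosome 19 zinc finger genes and for all tested genes, in 4 ranges of mean FPKM, with the counts over each bar. At 2 to 5 FPKM 1 of 75 members was called, against 485 of 3327 genes.

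Among the called members, ZNF175 had the largest fitted rise. It is a KRAB protein with 13 fingers, also known as OTK18 and described in HIV-infected macrophages, and the gene (ENSG00000105497, 19:51571298-51592508, plus strand) opens cluster 9. It had 3.52 and 3.81 FPKM at 30 Gy (416 and 448 reads) and 1.62 and 1.64 FPKM at 0 Gy (208 and 206 reads). Both 30 Gy libraries were more than double either 0 Gy library. The means were 3.67 ± 0.201 and 1.63 ± 0.016 FPKM (SD, n = 2 each), 2.25-fold higher at 30 Gy, with a log2 change of 0.83 ± 0.10 (SE, adjusted p = 0.00921, limma).

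ZNF530 (ENSG00000183647, 19:57599885-57612722, plus strand), a KRAB gene with 13 fingers in cluster 10, was the other member that rose. Its levels were 2.26 and 2.35 FPKM at 30 Gy and 1.39 and 1.08 FPKM at 0 Gy, without overlap. Its means of 2.31 ± 0.0676 FPKM at 30 Gy and 1.23 ± 0.217 FPKM at 0 Gy (SD, n = 2 each) gave a 1.87-fold rise and a log2 change of 0.57 ± 0.13 (SE, adjusted p = 0.0406, limma). With the replicate number as a block it did not pass (adjusted p = 0.0709, limma).

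The 3 members that fell were among the most abundant and had no KRAB match. ZNF428 (ENSG00000131116, 19:43607219-43619874, minus strand), a gene of cluster 8 with a single finger, had 7.54 and 8.23 FPKM at 30 Gy and 11 and 12 FPKM at 0 Gy. Both 30 Gy values lay well under both 0 Gy values. It was 1.46-fold lower, with a log2 change of -0.50 ± 0.08 (SE, adjusted p = 0.0193, limma). Of its exons 27.6% overlap another gene, and 25% of its 50-base words occur in other transcripts, those of SRRM5 foremost, so its reads are partly uncertain.

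ZNF121 (ENSG00000197961, 19:9560353-9584533, minus strand), with 9 fingers in cluster 2, had 6.61 and 6.48 FPKM at 30 Gy and 9.02 and 8.67 FPKM at 0 Gy. Replicates were close and the doses apart, for a 1.35-fold fall (log2 change -0.38 ± 0.07 SE, adjusted p = 0.0232, limma). ZNF787 (ENSG00000142409, 19:56087366-56121280, minus strand), with 6 fingers in cluster 10, had 16.4 and 14 FPKM at 30 Gy and 21.4 and 20.6 FPKM at 0 Gy. It was 1.38-fold lower (log2 change -0.44 ± 0.09 SE, adjusted p = 0.0322, limma). Its exons are 70.3% GC, and with trends on GC and length removed from each library its change was -0.43 (adjusted p = 0.00690, limma).

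None of the calls by limma passed in every fit with 1 library left out. Each such fit leaves a single library at 1 dose. Where no gene of the table passed, the fit says nothing about the members in particular. Without 30 Gy replicate 1, ZNF175 and ZNF787 passed with ZNF579, 3 in all (1.90%), beside 898 of 13379 genes (6.71%). Without 30 Gy replicate 2, 0 members passed (11 at an unadjusted p under 0.05), beside 862 genes (6.44%). Without 0 Gy replicate 1 or 2, 0 members passed (12 and 7 at an unadjusted p under 0.05), as did 0 of all 13379 genes (3422 and 3460). When every gene above 0 in any library was tested, 0 of 230 members passed (16 at an unadjusted p under 0.05), beside 604 of 30687 genes (1.97%; 6111 at an unadjusted p under 0.05). The lowest adjusted p of the 5, that of ZNF175, was 0.0549 by limma. Voom on the recovered reads called all 5.

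**Figure D3:**
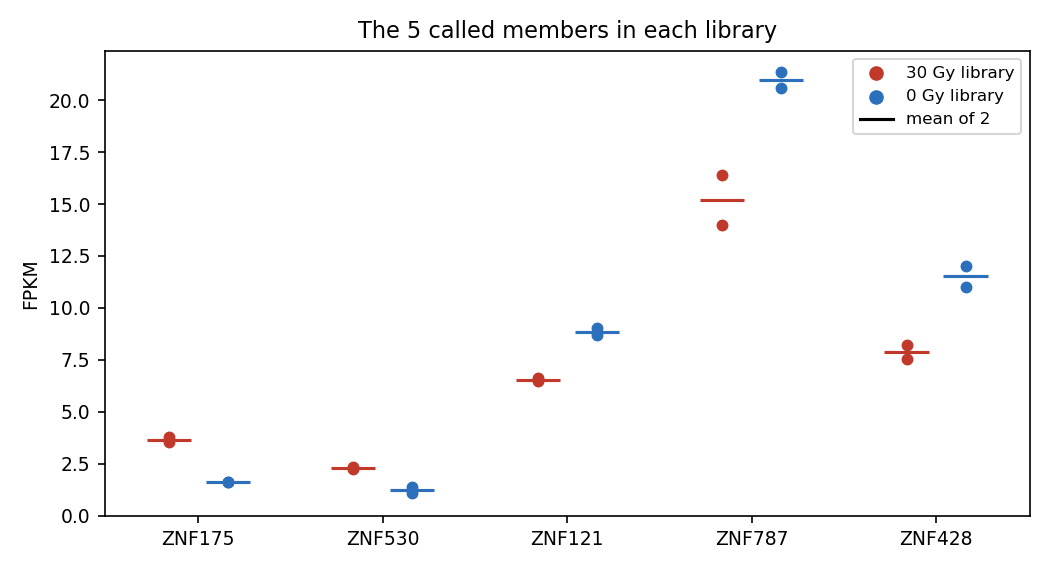
FPKM of the 5 called members in each library, 30 Gy left of 0 Gy, with a line at the mean of 2. ZNF175 and ZNF530 lie higher at 30 Gy, ZNF121, ZNF787 and ZNF428 lower, and no pair of groups overlaps.

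On the recovered reads of the same genes, limma's voom called 14 members, against 31.6% of all tested genes. It called 6 higher: ZNF175, ZNF530, ZNF266 (cluster 2), ZNF347 (cluster 9), ZNF45 (cluster 8) and ZNF850 (cluster 6). It called 8 lower: ZNF787, ZNF579, ZNF865 and ZNF550 (cluster 10), ZNF428, ZNF121, and ZNF506 and ZNF486 (cluster 4). Of the 14, ZNF506, ZNF486 and ZNF850 passed the filter only through the dose where they were higher, which favours a difference. ZNF347, a 17-finger KRAB gene, shows how close the calls run: with 4.05 and 4.06 FPKM at 30 Gy and 3.0 and 3.05 FPKM at 0 Gy, its adjusted p was 0.0501 on log2(FPKM + 1) and 0.00907 with voom.

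By cluster, the calls were scattered: 1 each in clusters 2, 8 and 9, 2 in cluster 10 and 0 elsewhere. Clusters 3, 4 and 6, with 12, 11 and 13 tested members, had 0 calls. At an unadjusted p under 0.05 (limma) they had 1, 2 and 1, and by voom 0, 2 and 1. Over all tested genes these shares were 37.7% and 31.6%. The voom calls, ZNF506 and ZNF486 in cluster 4 and ZNF850 in cluster 6, passed the filter through 1 dose alone. Median log2 changes ran from -0.09 in cluster 7, where only 2 members were tested, to 0.19 in cluster 3. Clusters 2, 6, 8 and 10 had medians of -0.02, 0.02, -0.01 and -0.02. Cluster 9 had 0.09, with 22 members above 0 and 10 below. Between neighbours in gene order, changes were weakly related: over 112 adjacent pairs of tested members Pearson's r was 0.19 and 68 pairs shared a sign, while at 2 places apart r was 0.001 over 100 pairs and at 5 places 0.10 over 84. These pairs share libraries and, often, sequence.

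**Figure D4:**
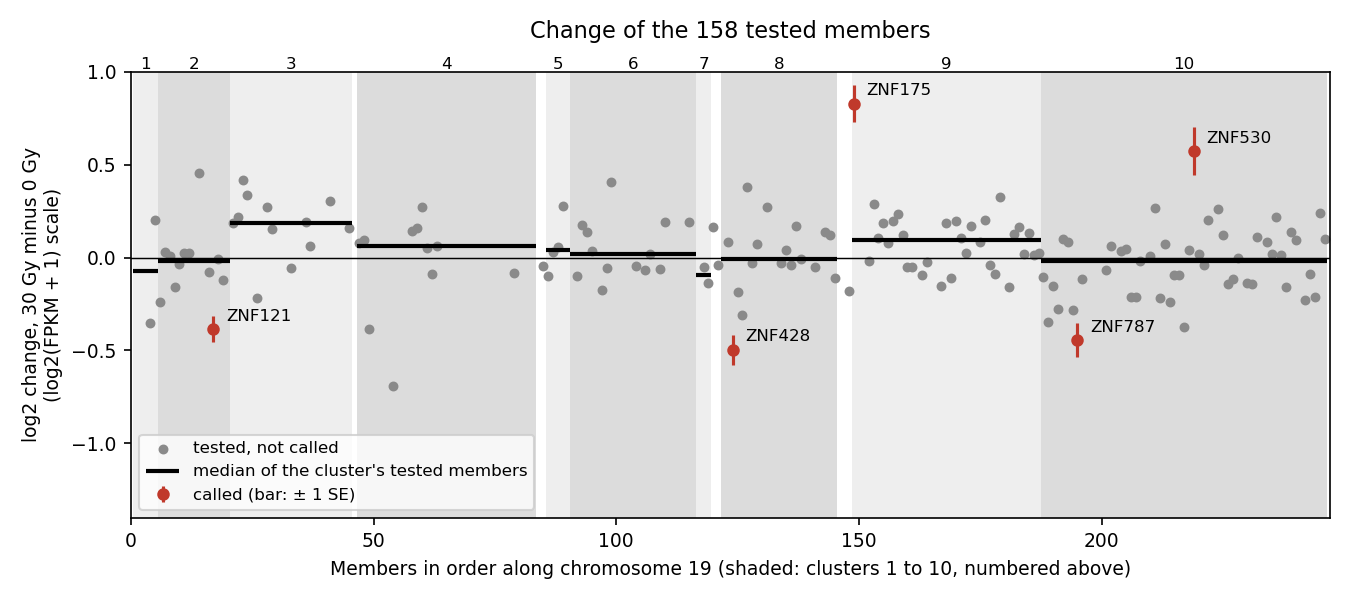
Fitted log2 change, 30 Gy minus 0 Gy on the log2(FPKM + 1) scale, of the 158 tested members in order along chromosome 19, with a bar at each cluster's median and SE bars on the 5 called members. The median of cluster 3 is 0.19, and 10 of its 12 tested members lie above 0.

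Clusters 3 and 4 leaned opposite ways, which is a description with no test. In cluster 3 all 25 members were detected. The doses did not overlap for 15 of them, with 13 higher at 30 Gy (52%) and 2 lower (8%). The same shares over all detected genes were 28.6% and 29.4%, and over all 225 detected members 27.1% (61) and 23.6% (53). Some of the 13 higher members rest on few reads and were not tested by limma. ZNF763 had 12 reads in each 30 Gy library and 13 and 5 reads at 0 Gy. ZNF625 had 8 and 10 reads at 30 Gy and 5 and 2 at 0 Gy, and ZNF20 10 and 17 and 4 and 4. The summed level of cluster 3 was 27.7 and 29.9 FPKM at 30 Gy and 24.6 and 23.4 FPKM at 0 Gy. Replicate 1 minus replicate 2 had a median of -0.10 at 30 Gy and 0.06 at 0 Gy over its tested members, beside the 0.19 between dose means. ZNF823, with 1.78 and 2.17 FPKM at 30 Gy and 1.38 and 1.08 FPKM at 0 Gy, had the largest fitted difference and did not pass (0.42, adjusted p = 0.105, limma). Of the other protein-coding genes in the interval 2 were tested and both lay below 0, with a median of -0.10. In 8 of the 25 members, over 20% of the 50-base words occur in transcripts of other genes, so reads may be split among relatives.

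In cluster 4, 9 of 37 members had 0 reads, 13 overlapped between doses, 12 were lower at 30 Gy without overlap and 3 higher. As shares of its 28 detected members these were 42.9% lower and 10.7% higher, beside the 29.4% and 28.6% of all detected genes. Summed level was 20.3 and 20.5 FPKM at 30 Gy and 22.7 and 21.9 FPKM at 0 Gy. The lower members were mostly under the level needed for the test. The median over the 11 that were tested was 0.06, with 7 above 0, and it was -0.03 with the filter at 0.3 FPKM.

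**Figure D5:**
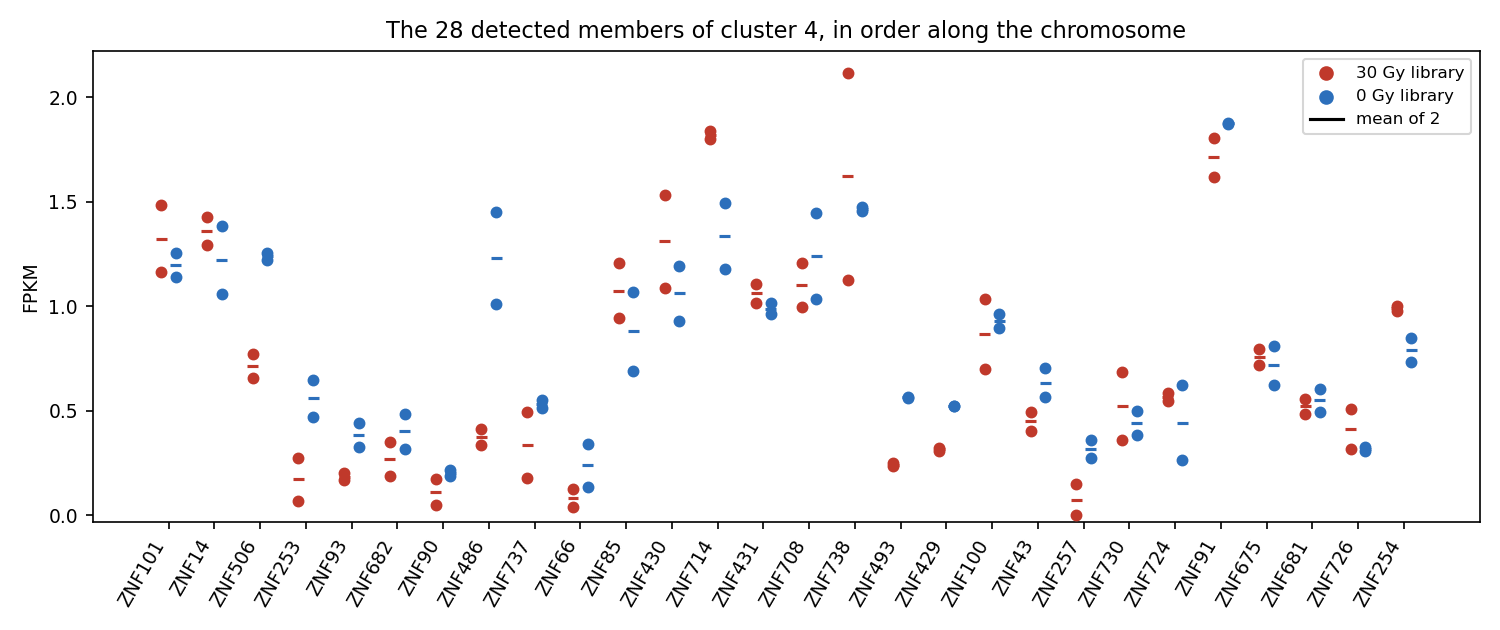
FPKM of the 28 detected members of cluster 4 in each library, 30 Gy left of 0 Gy, in order along the chromosome, with a line at the mean of 2. Among others, ZNF506, ZNF253, ZNF486, ZNF493 and ZNF429 lie lower at 30 Gy without overlap, and ZNF714 and ZNF254 higher.

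Voom on all genes with at least 10 reads in at least 2 libraries called 18 of 218 members, 7 higher and 11 lower, against 28.7% of all genes so tested. In cluster 4 it tested 27 and called 5, all lower. They are named here after their values were seen. ZNF506 had 104 and 88 reads at 30 Gy and 184 and 175 reads at 0 Gy (voom log2 change -0.81, adjusted p = 0.00549). ZNF486 had 23 and 28 reads at 30 Gy and 75 and 105 reads at 0 Gy (-1.69, adjusted p = 0.00171 with voom, and 0.0613 by limma on log2(FPKM + 1)). ZNF493 had 45 and 42 reads at 30 Gy and 110 and 108 reads at 0 Gy (-1.22, adjusted p = 0.00261, voom). In all 3 the doses lie well apart. ZNF253, with 4 and 16 reads at 30 Gy and 41 and 29 reads at 0 Gy (-1.93, adjusted p = 0.0221, voom), and ZNF257, with 0 and 12 reads at 30 Gy and 24 and 31 reads at 0 Gy (adjusted p = 0.0136, voom), rest on few reads. ZNF93, a KRAB protein that represses LINE-1 elements, also lies here and had 18 and 15 reads at 30 Gy and 32 and 42 reads at 0 Gy, and it did not pass (adjusted p = 0.0997, voom). In cluster 3 the same test called 1 member, ZNF439, with 0.866 and 1.26 FPKM at 30 Gy and 0.629 and 0.531 FPKM at 0 Gy (0.83, adjusted p = 0.0407, voom).

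Protein features were read from GENCODE v29 coding sequences translated by script. A residue pattern of the KRAB A box was found in 202 members and not in 44. A miss does not show that a gene has no KRAB box. Members with a match had a median of 1.33 FPKM at 30 Gy and 1.24 FPKM at 0 Gy, and those without one 2.60 and 2.69 FPKM. Of 126 tested members with a match 2 rose and 0 fell (1.59%), and of 32 without one 0 rose and 3 fell (9.38%). Over all tested genes limma called 10.8% higher and 9.06% lower. By voom the counts were 6 higher and 3 lower with a match, and 0 higher and 5 lower without one. Over all tested genes voom called 31.6%, with 2050 of 13379 higher and 2177 lower. Median exonic GC was 41.7% with a match and 57.1% without. No test of this split was run. The longest coding sequence held a median of 12 fingers, with 0 regular ones in ZNF738 and 36 in the silent ZNF208. Members with over 15 fingers had 0 calls among 40 tested (3 at an unadjusted p under 0.05, and 3 by voom), and those with 0 to 5 had 1 among 12. Over all tested genes the shares were 19.8% by limma, 37.7% at an unadjusted p under 0.05 (limma) and 31.6% by voom.

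By promoter letters the calls were few on both sides, and no test was run. Of 55 tested members with an ETS match 1 rose and 2 fell (5.45%), with a median log2 change of -0.01, and 26 lay above 0. Of 88 without one 1 rose and 1 fell (2.27%), with a median of 0.07 and 54 above 0. Over all tested genes 19.8% were called, 10.8% higher and 9.06% lower. Shared sequence was limited for most members. Of the 246, 210 had neither over 20% of their 50-base words in other genes' transcripts nor over 20% of their exons overlapping another gene. Of these, 139 were tested, and 2 rose and 2 fell (2.88%).

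A list of partners through which KRAB proteins silence DNA, and of related chromatin factors such as DNMT1, UHRF1, ATRX and DAXX, was measured alongside. TRIM28, the corepressor itself, had 173 and 168 FPKM at 30 Gy and 159 and 160 FPKM at 0 Gy (log2 change 0.10, adjusted p = 0.274, limma). Its level is far above that of any member. SETDB1, which methylates H3K9, had 4.78 and 4.59 FPKM at 30 Gy and 5.31 and 6.16 FPKM at 0 Gy (-0.24, adjusted p = 0.129, limma). Of the 20 genes of this list, 19 were tested, 2 rose and 0 fell (10.5%, beside 19.8% of all tested genes), with a median of 0.08. With any 1 library left out, 0 of the list passed. CHD3, a remodeller of the NuRD complex, had 20.5 and 21.1 FPKM at 30 Gy and 16.4 and 15.9 FPKM at 0 Gy (0.35 ± 0.06 SE, adjusted p = 0.0229, limma). UHRF1, which guides DNMT1 to hemimethylated DNA, had 20.6 and 18.7 FPKM at 30 Gy and 14.4 and 15 FPKM at 0 Gy (0.40 ± 0.08 SE, adjusted p = 0.0267, limma). For both, the doses lay apart. ATF7IP2 was not tested. With the replicate block UHRF1 did not pass (adjusted p = 0.0517, limma). Voom called 4 more, all lower: HDAC1, MPHOSPH8 of the HUSH complex, ATRX and SETDB1. That made 6 of the 19 tested, a share no higher than the 31.6% of all tested genes called by voom.

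Beside related sets, the chromosome 19 members had the smallest share of calls among the 3 compared. Of 263 protein-coding ZNF genes on other chromosomes 200 were tested, and 6 rose and 13 fell (9.50%), with a median log2 change of -0.02. Of the 1226 other protein-coding genes of chromosome 19, 605 were tested, and 61 rose and 41 fell (16.9%), with a median of 0.02. No test of these shares against each other was run, and the sets were not matched by level. Median FPKM at 30 and 0 Gy was 2.20 and 2.21 for ZNF genes on other chromosomes. It was 0.845 and 0.803 for other coding genes of chromosome 19, and 1.48 and 1.42 for the members. Inside the clusters lay 22 other C2H2 genes with names outside the ZNF pattern, of which 7 were tested and 1 was called: ZSCAN18, at 2.93 and 2.53 FPKM at 30 Gy and 4.42 and 4.31 FPKM at 0 Gy, fell (adjusted p = 0.0242, limma). Of 17 ZNF pseudogenes of the chromosome 3 were tested by limma and 0 called.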

How the data were processed

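RNA was extracted with Trizol and sequenced by a standard Illumina preparation, per the labels' protocols. The authors deposited FPKM per gene for the 4 libraries on hg38, the build in the submitters' processing notes. The sources used here name no aligner or counter. All 58735 identifiers and positions matched GENCODE v29. FPKM multiplied by gene length gave whole reads for 100% of values (tolerance 0.001). The 13379 genes that reached 1 FPKM in 2 or more libraries entered limma 3.58.1 in R 4.3.3 (lmFit and a trended eBayes) on log2(FPKM + 1), two-sided, with Benjamini-Hochberg adjustment over all of them, 2 residual degrees of freedom and no covariate. limma and voom were also run on simulated reads with known changes, and no result given here rests on that run. Clusters join members at gaps of at most 1 Mb. Members named are those called, the 10 most abundant, the most abundant of each cluster, those at 0 reads and the called silencing genes; others are named where stated. The members and lists were chosen with earlier results of these data known. Alternatives were other pseudocounts, filters, scalings, a replicate block, single libraries left out, voom on the reads and, added after seeing the data, voom with median-ratio factors or a 10-read filter and removal of GC and length trends.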

Additional observations from a re-analysis of the deposited data

How the results depend on the processing

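With 2 libraries per dose, few calls are firm. The 5 member calls became 0 of 230 when every gene above 0 was tested (604 of 30687 over all genes), 3 of 211 at FPKM 0.3 (2075 of 17890), 3 of 20 at FPKM 5 (2620 of 7734), 8 of 158 with GC and length trends removed (3479 of 13379), 14 of 158 with voom by library totals or median-ratio factors (4227 and 4178 of 13379) and 18 of 218 with voom at 10 reads (4715 of 16446). Higher calls numbered 0 for every gene above 0, 1 at FPKM 0.3, 0 at FPKM 5, 4 with robust eBayes, 1 with the replicate block, and 6, 6 and 7 in the 3 voom fits. Lower calls numbered 0 for every gene above 0, 5 with the trends removed, and 8, 8 and 11 with voom. The median member change was -0.11 at FPKM 5. Silencing calls numbered 0 for every gene above 0, 1 with the replicate block, and 6, 4 and 6 with voom. Leaving out 1 library gave 0 to 3 member calls, 0 to 1 higher, 0 to 2 lower and 0 silencing calls; without either 0 Gy library 0 of all genes passed, and without 30 Gy replicate 2 there were 0 member calls and 862 over all genes, a lone library being assumed to vary like the others. With 1 library left out, ZNF358 ran from -0.13 (without 30 Gy replicate 1) to 0.19 and was -0.01 without 0 Gy replicate 1. ZNF480 ran from -0.20 to 0.10 (without 30 Gy replicate 1), ZNF317 from -0.074 to 0.0062 and ZNF780B from -0.10 to 0.0022, both last values without 30 Gy replicate 2. The value given with a named library is of opposite sign to that with all 4. The cause was not tested.

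Over the alternatives the changes of the called members kept their sign: 0.78 to 1.17 for ZNF175, which passed in 11 of 15 settings, 0.47 to 0.91 for ZNF530 (8 of 15), -0.45 to -0.36 for ZNF121, -0.56 to -0.44 for ZNF428 and -0.55 to -0.34 for ZNF787 (each 11 of 16). The median of cluster 3 ran from 0.15 to 0.27 and that of cluster 4 from -0.14 to 0.10. Replicate numbers did not pair the libraries (correlation of deviations -0.03), and the replicate block left 4 member calls. Count tests of edgeR and DESeq2, planned as alternatives, were not run because the deposited unit is FPKM, and voom used library totals in place of TMM. At 3 reads for detection and 10 for voom, 225 and 218 of the 246 members could be looked at.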
